A study of Mus musculus with 75 samples.

Results

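The 10 genes described here encode collagens and proteins that bind or cross-link them: Col1a1, Col1a2, Col3a1, Col5a1, Col5a2, Col4a1, Col4a2, Col6a1, Sparc and Lox. They were chosen by name, and each had 1 row in a table of 63 libraries from 11 mouse tissues (20680 genes) and 1 row in a table of 11 choroid plexus libraries from parabionts (16954 genes). All animals were C57BL/6 mice, perfused with PBS before dissection. The titles of the tissue libraries mark these mice as WT, read here as wild type. Aged mice were 22 months old and young mice 3 months old, with 3 mice of each age in the tissue experiment and no treatment. Parabionts are animals whose circulations are surgically joined: isochronic pairs are of 1 age, and heterochronic pairs join a young with an old animal. There were 3 young isochronic, 3 old isochronic, 3 young heterochronic and 2 old heterochronic libraries, old meaning 22 months and young 3 months. How long pairs were joined is not given in the sources used here. Choroid plexus, the tissue both experiments share, is a secretory epithelium over a stroma of vessels and fibroblasts that makes cerebrospinal fluid. The study's groups ask how age, and the age of the partner's circulation, alter this tissue, and the comparisons below ask the same of its matrix genes.

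Fibrillar collagens form the ropes of connective tissue. Col1a1 and Col1a2 encode the chains of type I collagen, Col3a1 the chain of type III, found beside type I in distensible organs such as lung, gut and vessels, and Col5a1 and Col5a2 chains of type V, which starts fibrils and limits their width. Col4a1 and Col4a2 encode the chains of the type IV network in every basement membrane, the sheet under epithelia and around vessels. Col6a1 encodes a chain of the beaded filaments around cells, Sparc a collagen-binding glycoprotein of matrix and vessels, and Lox the lysyl oxidase that starts the cross-linking of collagen and elastin. A collagen chain repeats a triplet of glycine and 2 other residues, so that 3 chains can wind into a helix. In a fibril-forming chain the repeat is unbroken, and in type IV collagen it is interrupted.

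The coding sequences show the difference that splits the members into fibrillar and basement membrane groups. Reading the GENCODE transcript of each gene (GRCm38), the longest unbroken run of triplets that open with a glycine codon held 338 triplets in Col1a1, 339 in Col1a2, 344 in Col3a1, 338 in Col5a1 and 339 in Col5a2. It held 87 in Col6a1, 66 in Col4a2, which had 24 separate runs, and 40 in Col4a1, which had 22. Sparc and Lox had no such run. Below are 18 codons of 2 chains of each kind, 5′ to 3′, with glycine codons in capitals; those of Col1a1 (codons 168 to 185) and Col1a2 (97 to 114) keep their spacing, and those of Col4a1 (1344 to 1361) and Col4a2 (966 to 983) lose it.
Col1a1: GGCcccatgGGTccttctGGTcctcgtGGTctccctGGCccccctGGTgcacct
Col1a2: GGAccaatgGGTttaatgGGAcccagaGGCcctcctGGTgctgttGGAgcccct
Col4a1: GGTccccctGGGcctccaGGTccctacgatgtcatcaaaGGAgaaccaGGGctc
Col4a2: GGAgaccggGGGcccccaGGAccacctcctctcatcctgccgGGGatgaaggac

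Col4a1 and Col4a2 lie head to head and are read in opposite directions. In RefSeq's promoter windows (GRCm38.p6, 250 bases before to 50 after the start) their start sites are 21 bases apart and the windows share 78 bases, chr8:11312777-11312854. The shared bases are given on the Col4a2 strand, with the 1 GGGCGG match in capitals; this pair is shown because its 2 genes are compared as a unit below.
Col4a1 and Col4a2: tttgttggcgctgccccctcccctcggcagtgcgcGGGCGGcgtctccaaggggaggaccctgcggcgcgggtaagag
Windows were held for 7 members. On either strand CCAAT was found in 3 of the 7 (37.4% of 32851 windows), GGGCGG in 4 (35.7%) and TATAAA in 1 (13.6%), that of Col3a1. The 1 GGGCGG match of Col4a1 is the shared match shown above, so it is counted for Col4a2 as well.

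Most members, but not all, also share a feature after the stop codon. The miR-29 family of microRNAs, known for binding collagen messages, has 1 seed (bases 2 to 8, in capitals in these RefSeq sequences).
miR-29a-3p: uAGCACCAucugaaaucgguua
miR-29b-3p: uAGCACCAuuugaaaucaguguu
miR-29c-3p: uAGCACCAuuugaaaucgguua
The match to this seed, TGGTGCT on the message strand, was in the 3′ UTR of 7 of the 10 members: once in Col1a1, Col3a1, Col5a2 and Col4a1, 2 times in Col4a2, 3 times in Lox and 4 times in Col5a1. It was in none of Col1a2, Col6a1 and Sparc. Of 18163 genes with a 3′ UTR, 12.1% held it, with a median UTR length of 808 bases; those of the members ran from 767 bases (Col6a1) to 3160 (Lox), so length differs too. Matches in 4 members follow, with the match in capitals; the numbers of bases after the stop codon are 919, 235, 33 and 43. The search was chosen with results known, these libraries do not measure miR-29, and a match is a description of letters only.
Col1a1: gtgggaaggaatttcTGGTGCTa
Col3a1: ttcaaaatgtctcaaTGGTGCTa
Col4a1: gccaccgtcacaacaTGGTGCTa
Col4a2: gtgggaaggccacgtTGGTGCTt

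Values are normalised reads per transcript. The value worth 1 read was 0.527 to 2.19 in tissue libraries and 0.783 to 1.48 in parabiont libraries, and libraries held 187826 to 1134770 and 534662 to 991997 reads, so a value under 5 stands for a handful of reads. Some libraries stood apart from their labels. The library labelled spleen of young mouse 2 summed to 35237 over 5 lung epithelium genes, where the spleens of young mice 1 and 3 summed to 47.6 and 29.5. The lung library of this mouse summed to 55845 for 6 hepatocyte genes (154 and 177 in the other young lungs) and to 33693 for lung epithelium (89586 and 90875). Its hippocampus summed to 721 for 6 B and T cell genes (1.82 and 6.51), its mesenteric lymph nodes to 2645 for 6 colon epithelium genes (18.7 and 24.4), and its thymus to 1421 for 6 fat cell genes (248 and 290). Among aged mice, the inguinal lymph node library of mouse 3 summed to 9430 for fat cell genes, against 110 and 122.6. Genes of another organ or cell type stood out in more libraries, among them those that follow. The cervical lymph nodes of young mouse 2 summed to 1361 for 6 neuron genes (34.2 in the other young library). Its liver summed to 1321 for 5 thymocyte genes (10.4 and 8.23 in the others) and to 411 for B and T cell genes (16.8 and 9.09). The liver of young mouse 1 summed to 5897 for lung epithelium (57.5 and 56.3). The cervical lymph nodes of aged mouse 3 summed to 3144 for choroid plexus epithelium genes (195 and 451) and to 3116 for hepatocyte genes (219 and 461). Fat cell genes reached 8241 in the mesenteric lymph nodes of young mouse 3 (1330 in mice 1 and 2). Leptomeninges genes reached 1701 in the hippocampus of aged mouse 3 (312 and 186.5). Values without young mouse 2 or without that inguinal library stand beside the results they move. In the tissue libraries labelled choroid plexus its 6 epithelial genes summed to 212397 to 274034. They summed to 170 to 403 in hippocampus and to 6871 to 20217 in liver. Most of the choroid plexus sum is 1 gene, Ttr, at 207902 to 269574. The 6 hepatocyte genes summed to 207944 to 269608 in the same libraries, so these sums do not stand for a set of markers.

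The 2 tables did not share a scale. Ttr, the transthyretin message that marks choroid plexus epithelium, was the highest gene of every choroid plexus library in both, at 207902 to 269574 in the tissue table and at 777 to 1254 in the parabiosis table. Genes with a mean of 10 to 50 in tissue choroid plexus had a median of 61.0 in parabionts, and genes with a mean of 500 to 2000 had a median of 293. High values thus lie closer together in the parabiosis table. How this came about was not tested, and sizes of change are not compared between the tables.

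In young mice most members were highest in lung and lowest in hippocampus, choroid plexus or bone marrow. Sparc had a median of 1157 in lung (916 to 1525), of 506 in choroid plexus (480.5 to 548) and of 333 in spleen (281 to 1037). It was lowest in bone marrow, at 20.5 and 42.4. Lung and choroid plexus were apart in this order, as no library of one reached the other. Choroid plexus and spleen overlapped only through the 1037 of young mouse 2, whose spleen library held lung epithelium genes. The other young spleens, at 333 and 281, lay below every young choroid plexus. Col3a1 was highest in colon, with a median of 119 (80.8 to 122), which overlapped with lung at 83.2 (58.9 to 118). In choroid plexus it had a median of 6.99 (3.76 to 8.28). Col1a2 differed less between these tissues. It had a median of 117 (100.4 to 177) in choroid plexus and of 165 (114 to 171) in lung, with overlap. This overlap came through young mouse 2. Young mice 1 and 3 held 117 and 100.4 in choroid plexus and 165 and 171 in lung. Col4a1 had medians of 160 in lung (109 to 210) and 6.99 in choroid plexus (3.76 to 15.2). Lox stayed under 14 in every tissue library, and in liver it was listed at 0 in all 5.

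Across the 11 tissues, 106 pairs of a member and a tissue passed the filter on low values. Not tested were Col5a2 in bone marrow and Lox in hippocampus, liver and mesenteric lymph nodes. With limma and Benjamini-Hochberg adjustment over all genes, 1 pair was called at 0.05, Col1a1 in thymus, which was higher in aged mice. No member was called lower. At an unadjusted p under 0.05 there were 21 of 106 pairs, against 7.08% of all pairs of a gene and a tissue. The log2 change was below 0 in 69 of 106 pairs. Of all genes, 40.6% (hippocampus) to 51.1% (cervical lymph nodes) were below 0 in a tissue. In 12 pairs all aged libraries were lower (7.09% of all genes). In 5 pairs all were higher, 4 in thymus (10.6% of all genes there) and 1 in cervical lymph nodes (11.6%). Calls were rare among all genes: 0% in bone marrow, hippocampus and inguinal lymph nodes, 0.00653% in lung, 0.0068% in liver, 0.00688% in mesenteric lymph nodes, 0.0196% in cervical lymph nodes, 0.0402% in colon, 0.0758% in spleen, 0.183% in choroid plexus and 0.322% in thymus. Without its trend, limma called no member in either direction. In bulk tissue, fewer cells of a type and less RNA per cell cannot be told apart.

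**Figure D1:**
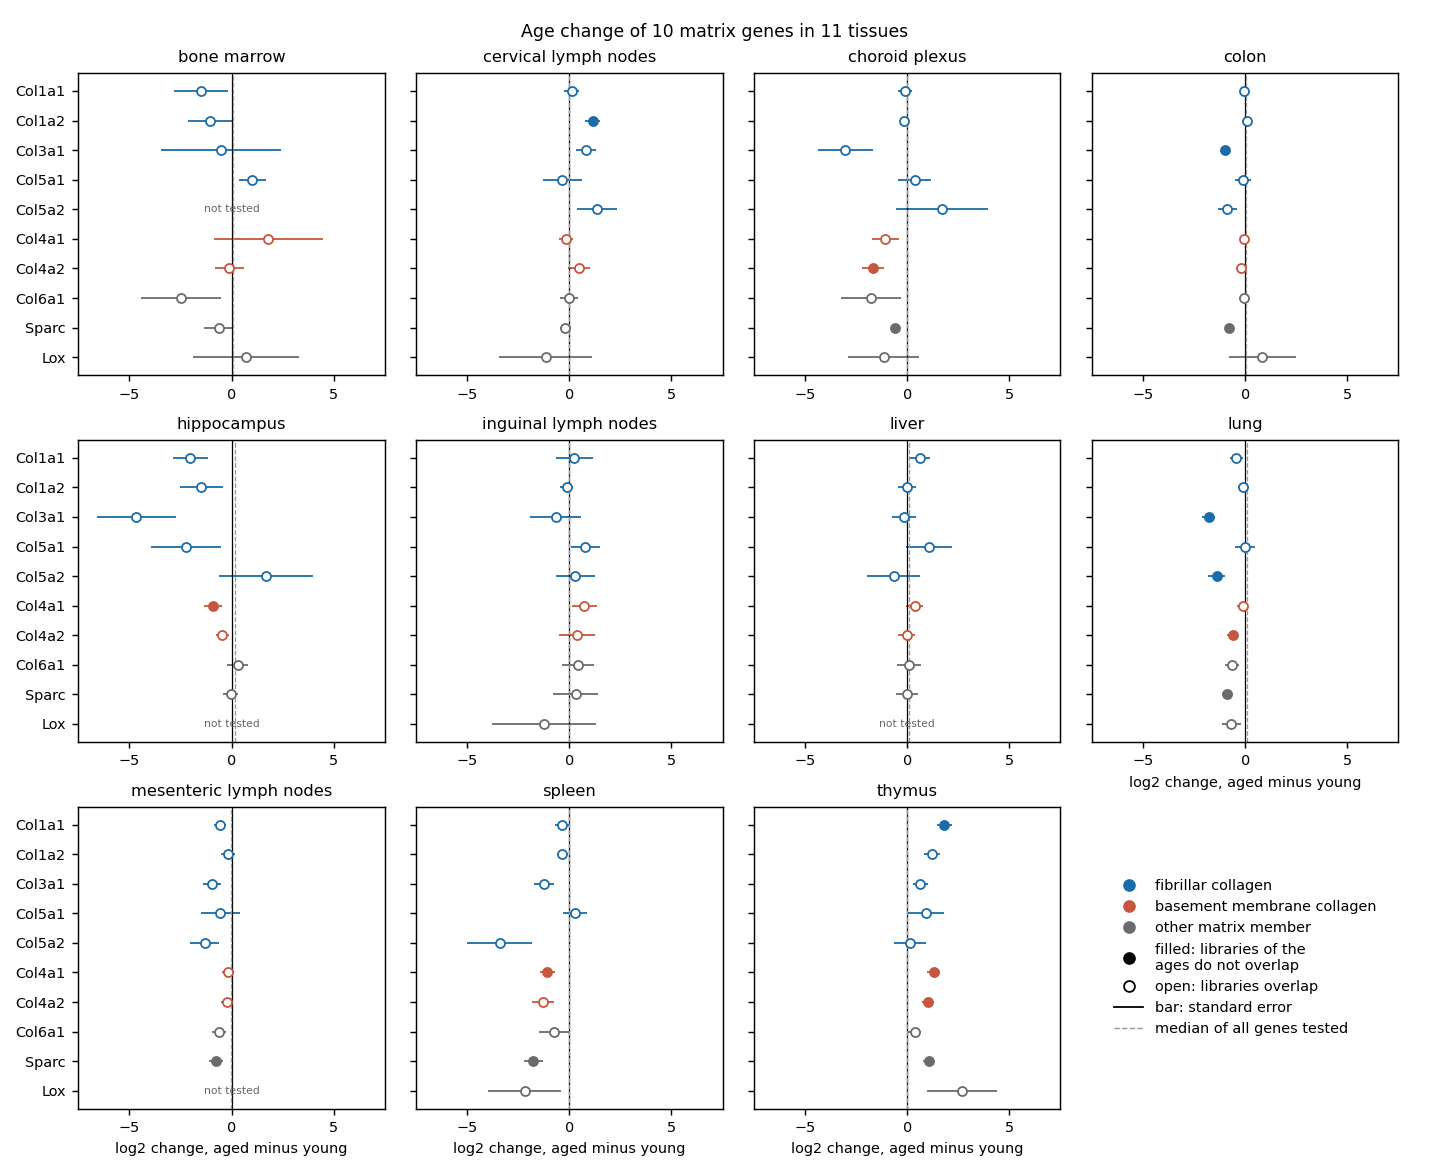
Log2 change from young to aged (horizontal axis) of the 10 members in each of 11 tissues, with standard errors; filled points mark members whose aged and young libraries do not overlap, and the dashed line is the median of all genes tested. In thymus all 10 points lie above 0, and in lung 9 of 10 lie below it.

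Sparc and Col3a1 each had a change below 0 in 9 of 11 tissues, and Sparc had more tissues without overlap. In 5 of its 9 tissues no aged library reached a young one: choroid plexus, colon, lung, mesenteric lymph nodes and spleen. In lung it was 637, 780 and 521 in aged mice and 1525, 916 and 1157 in young mice. All 3 aged lungs lay below all 3 young ones, a log2 change of -0.88 (SE 0.27, adjusted p 0.453). In colon it was 162, 140 and 121 in aged mice and 268, 270 and 203 in young mice, again without overlap (log2 -0.81, SE 0.19, adjusted p 0.2). In spleen the aged libraries held 110, 124 and 184 and the young ones 333, 1037 and 281. Of these, 1037 is young mouse 2; the log2 change was -1.76 (SE 0.46, adjusted p 0.431) with it and -1.17 (adjusted p 0.093) without it. In inguinal lymph nodes its change was 0.31, through the library of aged mouse 3 described below. In thymus Sparc was 121, 140 and 187 in aged mice and 61.4, 104 and 56.2 in young mice. Here every aged library was the higher one (log2 1.05, SE 0.26, adjusted p 0.127). Without young mouse 2, whose thymus held 104, it was called at 1.32 (adjusted p 0.0146), beside Col1a1; that fit called 1.05% of all genes.

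Col3a1, the type III chain, was without overlap in 2 of its 9 tissues, lung and colon, and had the lower median over tissues (-0.96, against -0.61 for Sparc). In lung it was 20.1, 20.8 and 33.7 in aged mice and 118, 58.9 and 83.2 in young mice. The ages did not overlap, and the change of -1.785 (SE 0.32) had an adjusted p of 0.279. Without young mouse 2, whose lung library was the lowest young one and held hepatocyte genes, the change was -2.04 (SE 0.29) and Col3a1 was called lower (adjusted p 0.0259), in a fit that called 0.101% of genes. In colon the aged libraries held 62.9, 53.6 and 44.9 and the young ones 122, 119 and 80.8. They did not overlap either (log2 -0.98, SE 0.23, adjusted p 0.185). Smooth muscle genes, of which colon is rich, overlapped between the ages (3774 to 5736 summed over 5 genes in aged, 3103 to 4825 in young), and 9 endothelium and pericyte genes did not (365 to 480.5 in aged, 485 to 649.9 in young). Fat cell genes were lower in every aged colon as well, at 31.2, 58.4 and 69.4 against 223, 81.9 and 222. None of the markers of these 3 lists was at 0 in all libraries of a colon group. The part of these cells in the result was not tested.

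Averaging log2 values over the 8 tissues with a library from all 6 mice, Col3a1 was 3.15, 3.44 and 2.90 in aged mice 1, 2 and 3 and 4.64, 5.36 and 4.26 in young mice 1, 2 and 3. It was the 1 member of 10 whose aged mice all lay below the young mice, as did 7.01% of 19405 genes. The mean difference was -1.59 on the log2 scale, with a two-sided exact permutation p of 0.1 over the 6 mice, the smallest that 3 against 3 mice can give. Part of its size comes from values near 0 in hippocampus and choroid plexus: with a pseudocount worth 1 read it was -1.06, with the same order of mice. The highest average, that of young mouse 2, includes libraries that held genes of another organ. Its hippocampus held 28.4 of Col3a1, against 1.55 and 1.21 in young mice 1 and 3. The averages of young mice 1 and 3, 4.64 and 4.26, also lay above every aged mouse. Sparc overlapped in this average, at 7.53, 7.61 and 8.20 in aged mice and 8.19, 8.40 and 8.06 in young mice.

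**Figure D2:**
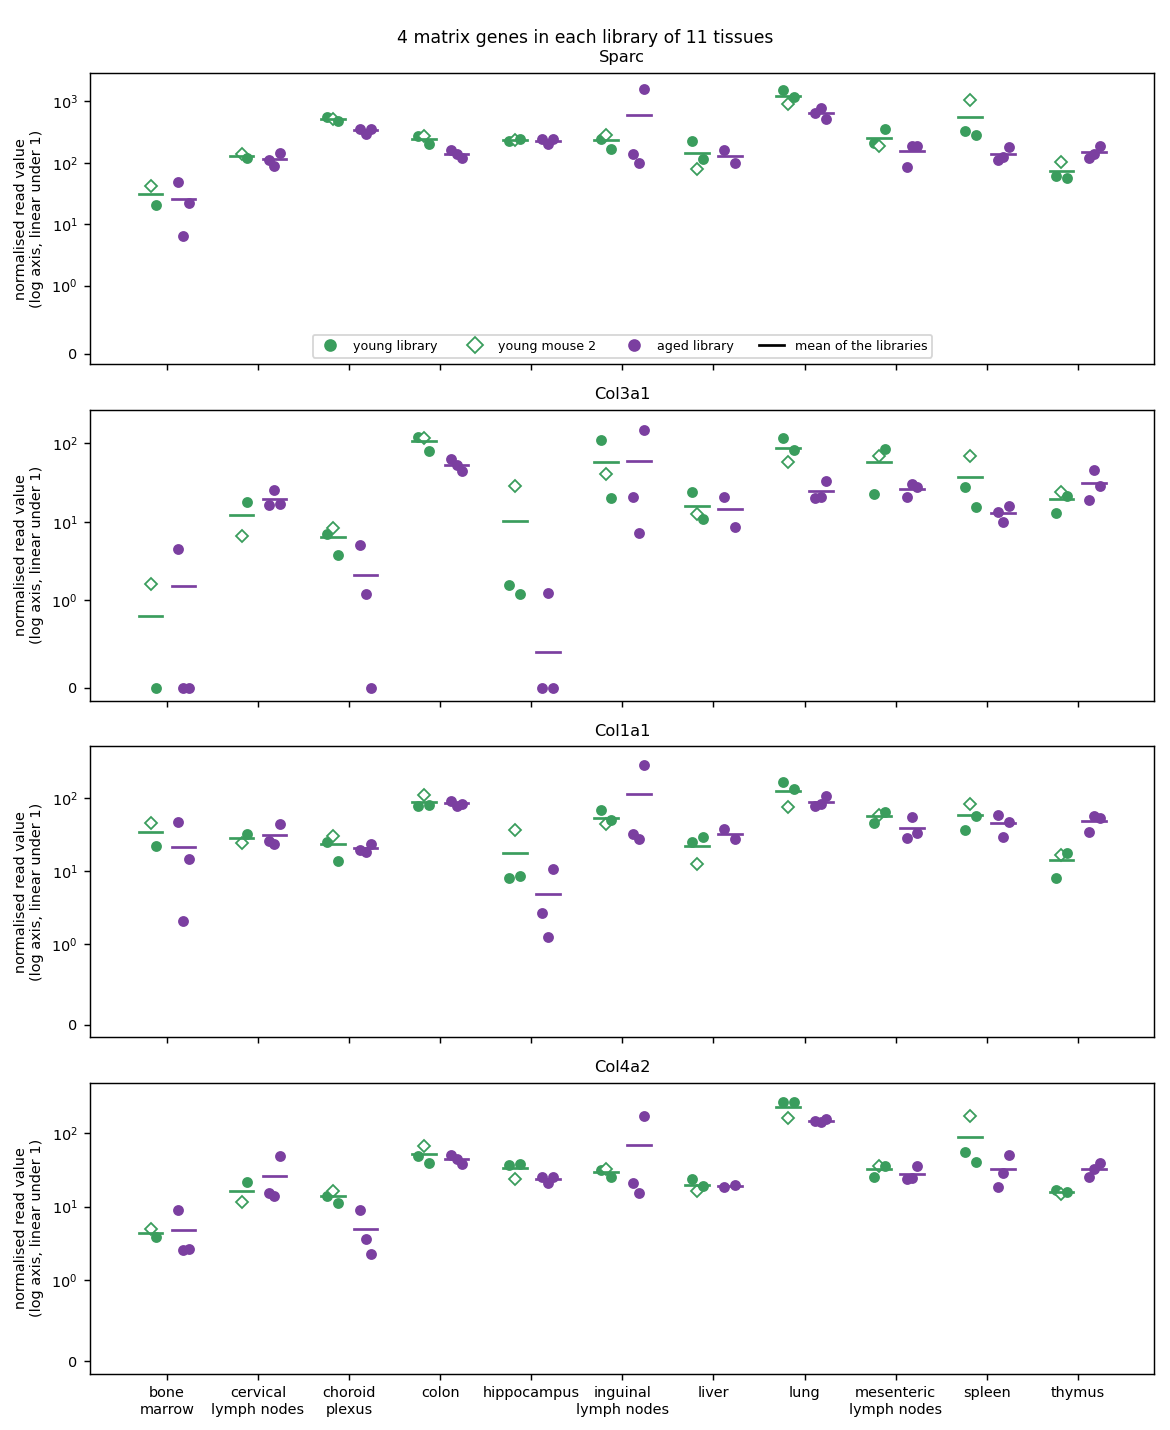
Normalised read values (log axis, linear under 1) of Sparc, Col3a1, Col1a1 and Col4a2 in each tissue library; green points are young, purple points aged, diamonds young mouse 2, and lines are means. In lung and colon the aged points of Sparc and Col3a1 lie below the young ones, and in thymus those of Sparc, Col1a1 and Col4a2 lie above them.

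In choroid plexus 2 members were lower in all aged libraries, Col4a2 and Sparc, as were 5.76% of all genes. Sparc was 348, 298 and 360 in aged mice and 548, 506 and 480.5 in young mice, means of 335 ± 33 (SD, n = 3) and 512 ± 34 (SD, n = 3). This difference had the smallest p of any member in that tissue, at -0.61 (SE 0.13), and missed the threshold with an adjusted p of 0.0665. It passed without the filter on low values (0.00474) and with a pseudocount worth 1 read (0.0347). Col4a2 was 8.96, 3.67 and 2.24 in aged mice and 14.0, 16.6 and 11.3 in young mice. Its change was -1.70 (SE 0.54, adjusted p 0.677), and Col4a1, its partner chain, was 3.84, 4.89 and 2.24 against 6.99, 15.2 and 3.76 (log2 -1.07, SE 0.65, adjusted p 0.853). The type I chains differed little: Col1a1 was 19.2, 18.3 and 23.5 in aged and 24.96, 30.4 and 13.8 in young mice, and Col1a2 was 115, 130 and 99.9 against 117, 177 and 100.4. For Col1a1 the 95% interval of the log2 change ran from -0.81 to 0.59. Col3a1 was 5.12, 1.22 and 0 in aged mice and 6.99, 8.28 and 3.76 in young mice, so that its log2 change of -3.03 (SE 1.33, adjusted p 0.837) rests on a library listed at 0 and on values of a few reads. Marker sums of stromal cells overlapped between the ages: 150.5 to 220 in aged and 192 to 218 in young mice for the 9 endothelium and pericyte genes, 110 to 172 and 136 to 171 for 8 fibroblast genes (Dpt was at 0 in all young libraries), and 842 to 2277 and 960 to 1546 for 6 leptomeninges genes. Here and below the fibroblast sum does not stand for fibroblasts alone. In aged mice it was 609 to 698 in hippocampus, where fibrillar chains were scarce, and 338 to 431 in colon.

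Lung had 4 members without overlap, all lower in aged mice (Col3a1, Col4a2, Col5a2 and Sparc), where 5.96% of all genes did the same. Col4a2 was 146, 143 and 155 in aged mice and 264, 161 and 271 in young mice. Col5a2 was 6.48, 4.16 and 6.21 in aged mice and 21.2, 15.3 and 9.69 in young mice. Their changes of -0.61 (SE 0.26) and -1.40 (SE 0.44) had adjusted p of 0.543 and 0.453. Col1a1 was 76.4, 82.2 and 106 against 166, 74.7 and 133, where 74.7 is young mouse 2. Without that library, 8 of 10 members did not overlap, all lower in aged lungs, against 12.2% of genes; Col4a1 and Col5a1 overlapped. Fibroblast genes overlapped in the lungs (376 to 591 summed in aged, 383 to 518 in young), as did endothelium and pericyte genes (1231 to 1449 and 856 to 1322). The 6 B and T cell genes were higher in every aged lung (142 to 202, against 62.1 to 121 in young lungs). Lung epithelium genes summed to 70360 to 85167 in aged lungs, below young mice 1 and 3 (89586 and 90875) and above young mouse 2 (33693). The part of these cells in the result was not tested.

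Thymus was the 1 tissue in which all 10 members were above 0, with a median log2 change of 1.03 beside -0.01 for all genes. Col1a1 was 33.9, 56.9 and 53.0 in aged mice and 7.92, 16.5 and 17.7 in young mice. No young thymus came near an aged one, and the change of 1.82 (SE 0.35) was called at an adjusted p of 0.0498. This call was lost when any 1 mouse other than young mouse 2 was left out, with changes of 1.45 to 2.05 and adjusted p of 0.0938 to 0.185. Col1a2 was 30.7, 99.7 and 51.0 against 16.8, 31.4 and 23.6, and overlapped through aged mouse 1 (log2 1.21, SE 0.38, adjusted p 0.234). Both chains of type IV collagen were without overlap: Col4a1 at 25.3, 46.0 and 37.0 in aged mice and 10.9, 19.7 and 13.4 in young mice (log2 1.30, SE 0.33, adjusted p 0.125), and Col4a2 at 25.3, 32.9 and 40.0 against 16.8, 14.9 and 16.1 (log2 1.01, SE 0.28, adjusted p 0.162). With Col1a1 and Sparc these made 4 of 10 members, beside 10.6% of all genes. The 9 endothelium and pericyte genes summed to 202 to 283 in aged and 109 to 131 in young thymus, without overlap. Fat cell genes summed to 1154 to 1704 in aged thymus and to 248, 1421 and 290 in young thymus, where 1421 is mouse 2, and fibroblast genes overlapped (968 to 1128 and 919.7 to 1346). As said above, this fibroblast sum does not stand for fibroblasts alone. The 5 thymocyte genes summed to 1421, 1079 and 1525 in aged and to 2290, 1205 and 2323 in young thymus, so that every aged thymus lay below young mice 1 and 3, and they overlapped through young mouse 2. All markers of the first 3 lists were above 0 in some library of each thymus group, and their part in the result was not tested.

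In spleen Sparc and Col4a1 were lower in every aged library, as were 7.14% of genes. Col4a1 was 29.1, 23.9 and 37.8 in aged mice and 39.2, 114 and 55.0 in young mice, the 114 being mouse 2. Smooth muscle genes were lower in every aged spleen too (197, 208 and 343.5 against 397, 426.5 and 449), and endothelium and pericyte genes overlapped (166 to 242 and 196 to 801); their part was not tested. The log2 change of Col4a1 was -1.08 (SE 0.37, adjusted p 0.513) with mouse 2 and -0.64 (adjusted p 0.578) without it. Colon had 2 such members, named above, beside 6.73% of genes. In hippocampus it was Col4a1 alone, with 3.95% of genes, at 11.4, 9.88 and 11.5 in aged mice and 15.5, 35.5 and 15.8 in young mice (log2 -0.91, SE 0.43, adjusted p 0.896). The 35.5 is young mouse 2, whose hippocampus summed to 1462 for neuron genes (5151 and 5911 in the other young mice). Fibrillar chains were scarce there outside young mouse 2, which held 63.9 of Col1a2 where the other young mice held 4.65 and 3.97. In mesenteric lymph nodes it was Sparc, at 86.1, 188 and 186 in aged mice and 210, 189 and 359 in young mice, beside 5.94% of genes. The 359 is young mouse 3, whose library stood out for fat cell genes. The nearest pair, 187.5 and 188.8, differ by about the value of 1 read (1.28 in that aged library). Thymocyte genes were also lower in every aged library there (76.6 to 98.6 against 129 to 189). In cervical lymph nodes it was Col1a2, higher at 52.4, 71.6 and 81.0 in 3 aged mice than at 21.6 and 43.4 in 2 young mice (log2 1.14, SE 0.36, adjusted p 0.609), beside 11.6% of genes. The 81.0 is aged mouse 3, whose library stood out for choroid plexus epithelium and hepatocyte genes. The 21.6 is the library of young mouse 2, and without it, with 1 young library left, the change was 0.63 (SE 0.35, adjusted p 0.861) and no member had an unadjusted p under 0.05. In these nodes endothelium and pericyte genes were higher in every aged library (545 to 829 against 308 and 526), and their part was not tested.

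Inguinal lymph nodes turned on 1 library. That of aged mouse 3, with its fat cell genes, held 1592 of Sparc where aged mice 1 and 2 held 137 and 99.9 and young mice 241, 283 and 167. The median change of the 10 members was 0.30 with it and -0.75 without it, and 9 of 10 were then below 0. Without it, Col1a1, Col1a2, Col4a2 and Sparc did not overlap and were lower in the 2 remaining aged mice, as were 10.7% of genes; Sparc had a change of -0.95 (SE 0.22, adjusted p 0.209). In bone marrow and liver no member was without overlap, and the medians of the members were -0.51 and -0.03, or -0.01 and -0.15 without young mouse 2.

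Fibrillar and basement membrane collagens did not move as separate blocks in a steady way. The median log2 change of the fibrillar chains was above the mean of Col4a1 and Col4a2 in choroid plexus (-0.11 and -1.38), spleen (-0.365 and -1.18) and cervical lymph nodes (0.81 and 0.15). It was below it in hippocampus (-2.03 and -0.68) and bone marrow (-0.77 and 0.84). In lung (-0.435 and -0.365), colon (-0.10 and -0.12) and thymus (0.91 and 1.155) the medians were close, and in colon and thymus their order turned without young mouse 2. That mouse set the size of several of these values: without it they were -0.225 and -0.66 in spleen, 0.085 and -0.25 in cervical lymph nodes, -1.315 and -0.59 in hippocampus, and -0.08 and 2.42 in bone marrow. Within the fibrillar group Col3a1 and Col1a2 parted: in colon Col1a2 was 155, 126 and 106 in aged mice and 151, 91.7 and 126 in young mice (log2 0.08, SE 0.22) where Col3a1 was lower throughout, and in lung its change was -0.09 (SE 0.25) beside -1.785 for Col3a1. This difference between chains was not tested. For the 2 type IV chains Pearson's r between log2 values over 63 tissue libraries was 0.83. It describes levels over libraries that share mice and tissue, not age changes, and no such r is given for Col3a1 with Col1a2. In their age changes the type IV chains also parted. Both were without overlap in thymus, Col4a1 alone in spleen and hippocampus, and Col4a2 alone in choroid plexus and lung. Whether these 2 chains changed alike with age was not tested.

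**Figure D3:**
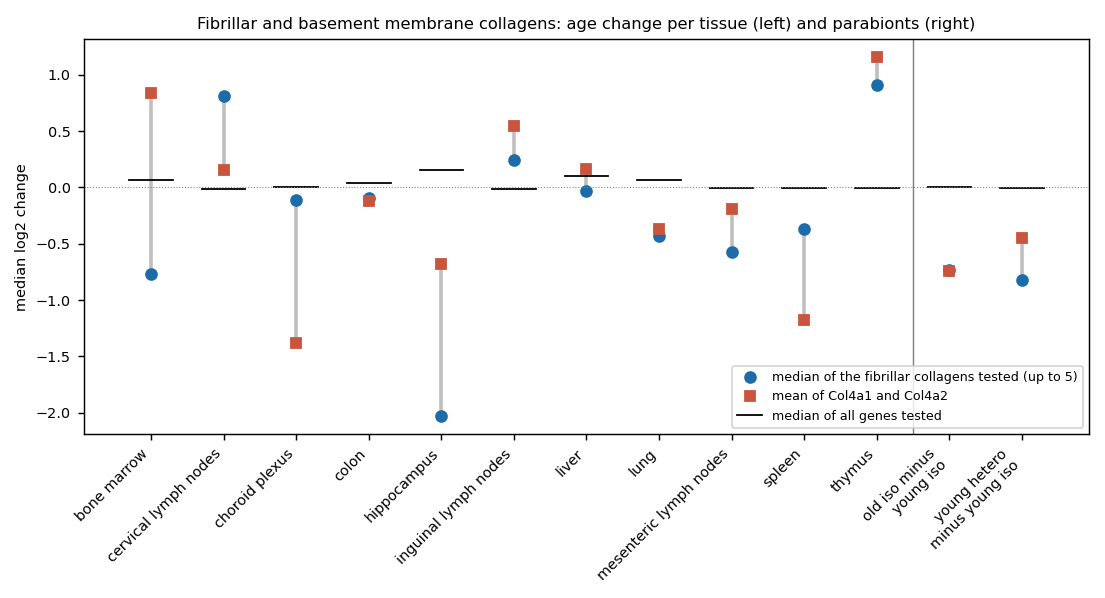
Median log2 change (vertical axis) of the fibrillar collagens tested (circles), the mean of Col4a1 and Col4a2 (squares) and the median of all genes tested (black lines) for the age comparison in 11 tissues and 2 comparisons of parabionts. In choroid plexus the circle lies at -0.11 and the square at -1.38, in hippocampus the circle lies lower, and in thymus both lie near 1.

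Whether a tissue's age change differed from the mean of the other 10 was tested in 1 model of the 63 libraries that held a term for each mouse. None of the 110 contrasts of a member passed, beside 0.259% of all contrasts; 11 had an unadjusted p under 0.05, beside 6.35%. Thymus minus the others was above 0 for all 10 members, with a median of 1.415. Col1a1 had the value 2.24 there (adjusted p 0.379) and Sparc 1.61 (adjusted p 0.59). In choroid plexus Col4a2 had -1.58 (adjusted p 0.201).

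In parabionts, all 10 members were lower on average in old than in young isochronic choroid plexus. None was called by limma (0.0788% of genes were), 7 of 10 had an unadjusted p under 0.05 (4.74% of genes), and in 6 no old library reached a young one (4.68% of genes): Col1a1, Col3a1, Col4a2, Col5a2, Col6a1 and Sparc. The median log2 change was -0.65, beside 0.00 for all genes. Col4a2 had the smallest p. It was 50.5, 38.4 and 42.9 in young isochronic and 20.2, 30.7 and 19.99 in old isochronic parabionts, with a change of -0.91 (SE 0.23, adjusted p 0.276). Col3a1 was 12.4, 13.3 and 15.7 in young and 4.81, 7.67 and 1.82 in old ones (log2 -1.74, SE 0.69, adjusted p 0.918). For both genes every old library lay well below the lowest young one.

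Col1a1 was 25.8, 27.4 and 29.7 in young and 19.2, 18.8 and 12.7 in old isochronic parabionts (log2 -0.73, SE 0.31, adjusted p 0.991). Col6a1, the beaded filament chain, was 18.6, 13.3 and 21.5 against 6.73, 10.2 and 9.995 (log2 -0.98, SE 0.35, adjusted p 0.823). Col5a2 was 9.28, 11.0 and 12.4 against 1.92, 6.82 and 7.27 (log2 -1.23, SE 0.53). Sparc differed least of these: 304, 327 and 267 in young and 262, 262 and 251 in old ones, a change of -0.21 (SE 0.09, adjusted p 1). As a highly placed gene (rank 52 to 168 of its libraries) it lies where the scale of this table is narrow. Whether this made its change smaller was not tested. Lox, at 18.6, 9.39 and 15.7 against 12.5, 11.1 and 9.09, overlapped, as did Col1a2, Col4a1 and Col5a1.

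Young heterochronic parabionts, which share blood with an old partner, were set against the same young isochronic libraries, so that both comparisons share their controls. All 10 members were lower on average, with a median of -0.57 beside -0.01 for all genes. None was called (0% of genes), 4 of 10 had an unadjusted p under 0.05 (6.19% of genes), and 5 were without overlap (5.36% of genes): Col1a1, Col4a2, Col5a1, Col6a1 and Lox. Lox had the smallest p, with 4.64, 5.99 and 9.06 in young heterochronic parabionts against 18.6, 9.39 and 15.7 (log2 -1.14, SE 0.40, adjusted p 0.752). Its nearest pair, 9.06 and 9.39, differs by less than the value of 1 read (0.783 to 1.48 in parabiont libraries). So does that of Col6a1, with 13.1 in a young heterochronic and 13.3 in a young isochronic library. Col1a1 was 23.2, 8.98 and 18.1 (log2 -0.82, SE 0.31, adjusted p 0.758), below all isochronic values, the nearest pair being 23.2 and 25.8. Col5a1 was 6.96, 7.98 and 6.04 against 14.4, 12.5 and 10.7 (log2 -0.84, SE 0.38, adjusted p 0.805), and its libraries were clearly apart. Col3a1 varied widely in this group, at 6.96, 0.997 and 14.1, and overlapped with the controls. Sparc, at 327, 247 and 297, differed by -0.05 (95% interval -0.24 to 0.15).

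Some marker sums differed between these groups and others overlapped. The 5 smooth muscle genes summed to 109 to 144 in young isochronic, 72.0 to 105 in old isochronic and 75.8 to 85.1 in young heterochronic parabionts, so both groups lay below the controls without overlap. The 9 endothelium and pericyte genes summed to 492 to 535, 444 to 466 and 437 to 498. Here old isochronic libraries lay below the controls, and young heterochronic ones overlapped with them. The 7 fibroblast genes in this table (415 to 492, 403 to 428 and 363 to 427) and leptomeninges genes (532.5 to 662, 538 to 588 and 596 to 649) overlapped. No smooth muscle, endothelium, fibroblast or leptomeninges marker was at 0 throughout a group, and their part in the result was not tested.

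**Figure D4:**
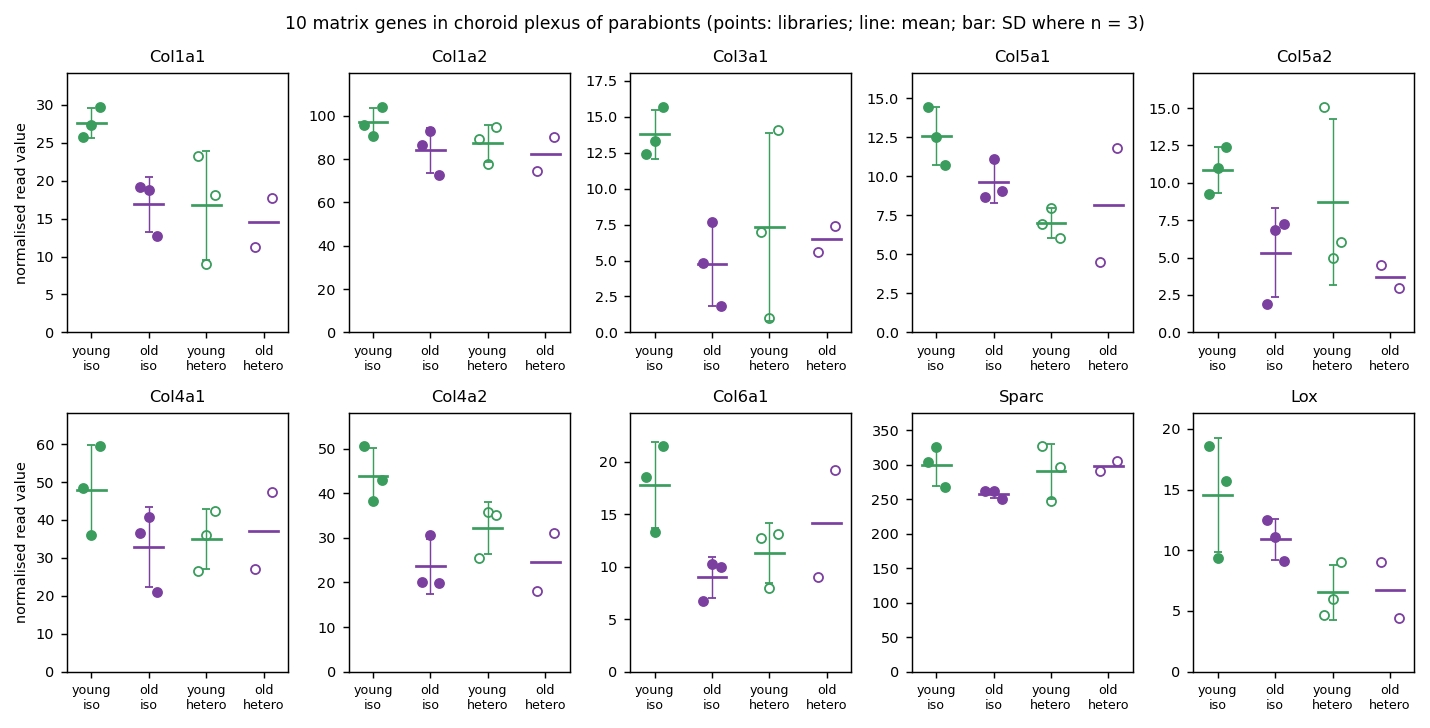
Normalised read values of the 10 members in choroid plexus of young isochronic, old isochronic, young heterochronic and old heterochronic parabionts; points are libraries, lines means and bars SD where n = 3. Young isochronic libraries have the highest mean of the 4 groups for each member; for Sparc the means of 3 groups are nearly level.

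Old heterochronic parabionts, joined to a young partner, showed no such shift against old isochronic ones. The median of the members was 0.00 beside -0.02 for all genes, none was called (0% of genes) and none had an unadjusted p under 0.05 (8.57% of genes). With 2 libraries against 3, Lox was lower without overlap (9.00 and 4.44 against 12.5, 11.1 and 9.09; 12.4% of genes) and Sparc higher (291 and 306 against 262, 262 and 251; 12.8% of genes). The nearest Lox libraries, 9.00 and 9.09, differ by less than the value of 1 read (0.783 to 1.48 in parabiont libraries). The Sparc difference was 0.21 (SE 0.10, adjusted p 0.606). Between old and young heterochronic parabionts the median was 0.03, none was called (0.0909% of genes), none had an unadjusted p under 0.05 (8.27% of genes), and Col5a2 alone was lower without overlap (4.50 and 2.96 against 15.1, 4.99 and 6.04; 10.6% of genes). The nearest Col5a2 libraries, 4.50 and 4.99, also differ by less than the value of 1 read. Intervals were wide: for Col3a1 in old heterochronic against old isochronic parabionts the change was 0.66 (SE 0.77).

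Other genes of the matrix were read from lists of collagens, proteoglycans, biosynthetic and cross-linking enzymes, basement membrane proteins, elastic fibre proteins, proteases and TGF-beta signalling. No gene of these 8 lists was called in any of the 11 tissues or 4 comparisons of parabionts; over tissues, 102 of 949 tests had an unadjusted p under 0.05 (7.08% of all genes), and 28 of those were among the 90 tests in thymus (beside 11.8% of all genes there). In thymus 17 of the 90 were below 0. The small proteoglycans and fibril regulators had the highest list median there, 1.26 over 15 genes, of which 8 were without overlap and higher (10.6% of all genes in thymus). Of the 16 enzymes and chaperones of collagen synthesis tested 5 did so, named after their values were seen: the lysyl hydroxylases Plod1 (1.33, SE 0.34, adjusted p 0.137) and Plod3 (1.09, SE 0.31), the procollagen protease Adamts2 (2.39, SE 0.63), and the chaperones Fkbp10 (1.88, SE 0.73) and Serpinh1 (0.67, SE 0.25, adjusted p 0.307). Without young mouse 2, 3 list genes were called higher in thymus: the cross-linking enzymes Tgm2 (1.32, SE 0.26, adjusted p 0.0264) and Loxl1 (2.93, SE 0.60, adjusted p 0.0345), and the protease inhibitor Timp2 (1.23, SE 0.26, adjusted p 0.0406). In lung that fit called elastin, Eln, lower (-1.34, SE 0.20, adjusted p 0.0259).

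In young heterochronic against young isochronic parabionts, 15 of 95 list genes had an unadjusted p under 0.05 (6.19% of all genes), and in old against young isochronic ones 5 of 95, near the 4.74% of all genes. Of the 9 partners of collagen VI, elastic fibre genes and fibronectin, 4 were lower without overlap in young heterochronic parabionts (5.36% of all genes). These were Col6a2, the partner chain of Col6a1 (-1.91, SE 0.61), Emilin1 (-1.03, SE 0.27), Fbln2 (-0.71, SE 0.34) and Ltbp1 (-0.71, SE 0.32), with adjusted p of 0.708 to 0.805; they were named after their values were seen. In old against young isochronic parabionts Col6a2 was the 1 such gene of this list (-1.01, SE 0.61, adjusted p 1).

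By a rule for likeness, the genes whose log2 values were most like the mean of Col1a1, Col1a2 and Col3a1 over 17 choroid plexus libraries of both experiments, each centred, were Stk11ip (Pearson's r 0.83), Plvap (0.81), Capsl (0.78), Serbp1 (0.78) and Mindy4 (0.77), out of 7257 genes. Over the young medians of the 11 tissues they were Septin2 (0.935), Foxf1 (0.91), Gata6 (0.91), Mustn1 (0.90) and Efemp1 (0.895), out of 13023 genes. Among members on that scale Col5a2 had 0.79, Lox 0.775 and Sparc 0.565. These are the top values of many over few points, and they describe these libraries only.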

How the data were processed

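RNA sequencing libraries of 11 tissues and of choroid plexus from parabionts were analysed, 74 of 75 listed samples; 1 column that matches no listed sample was not used. TopHat and the build mm9 are named for these libraries per the submitters' processing notes. The counting tool was not given in the sources used here, nor was the scaling. Deposited values are a signal: reads per transcript divided by 1 factor per library, judged from the steps between values, with 70.7% to 86.1% whole multiples of a step (tolerance 0.001). They were not whole counts, so no count model was used.

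The row with the highest mean was kept per gene. limma 3.58.1 in R 4.3.3 (trend, robust) was fitted to log2(value + pseudocount). The pseudocount (each library's smallest value above 0, then the median) was 0.0619 in choroid plexus and 0.0499 in parabionts, and 0.0267 to 0.0571 in other tissues. It is far under the value of 1 read, so a library at 0 enlarges the log2 change of a low gene. A gene was tested if it exceeded 4 times the pseudocount in at least the number of libraries in the smaller group, each tissue by itself and the 4 parabiosis groups together; calls are Benjamini-Hochberg adjusted over all genes at 0.05. The fit was tested on simulated data. Alternatives were quantile normalization, no trend, no filter, a pseudocount worth 1 read, a replicate block, the mean of a gene's rows, only the 2 groups compared, no mouse term, and leaving out each mouse or library. Named are the 10 members, called list genes (4 per list) and the 5 genes most like the fibrillar collagens, chosen by correlation; others were named after their values were seen. The members and lists were chosen with earlier results of these data known. Tissue replicates are separate mice; for parabionts the labels give separate numbers, and p-values measure only the spread between these samples.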

Additional observations from a re-analysis of the deposited data

Results flagged for a closer look

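In 3 members the age change had opposite directions in thymus and in another tissue, with no overlap between the ages in either. The differences between these pairs of tissues were not tested; the test of thymus against the mean of the other tissues passed for no member. For Sparc the log2 change in thymus (1.05) exceeded that in choroid plexus by 1.66, in colon by 1.86, in lung by 1.93, in mesenteric lymph nodes by 1.797 and in spleen by 2.81. For Col4a1 thymus (1.30) exceeded hippocampus by 2.21 and spleen by 2.37. For Col4a2 thymus (1.01) exceeded choroid plexus by 2.71 and lung by 1.62. Limits given above apply here. The spleen changes of Sparc and Col4a1 were smaller without young mouse 2. Col4a1 in hippocampus was highest in that mouse (35.5, against 15.5 and 15.8 in the other young mice). The nearest Sparc values in mesenteric lymph nodes differ by about the value of 1 read.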

How the results depend on the processing

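The call of Col1a1 in aged thymus was the 1 member called higher; limma without trend called 0, the mean of a gene's rows 0, and leaving out each mouse in turn 0 to 2, with 2 (Col1a1 and Sparc) without young mouse 2. No member was called lower, but 1 was without the filter and 1 with a pseudocount worth 1 read (both Sparc in choroid plexus, adjusted p 0.00474 and 0.0347, range over all its alternatives 0.00474 to 0.954), and leaving out each mouse gave 0 to 1, the 1 being Col3a1 in lung (without young mouse 2). Pairs of a member and a tissue lower without overlap numbered 12 with all libraries (all genes 7.09%), 20 without young mouse 2 (14.4%), and 15 to 26 with any 1 of the 6 mice left out (10.7% to 15.6%), since smaller groups overlap less; counting overlap without single libraries, the mouse averages and the scale check were chosen after seeing the data. Contrasts between tissues passed for 0 members, and for 0 to 1 with a mouse left out (1 each without aged mouse 1 and aged mouse 2). In parabionts none of the alternatives run called a member. No called value changed sign; of 1951 member values under alternatives 1846 kept theirs within the error or kept their call state, 94 moved by more, 4 gained and 7 lost a call, and 108 had the other sign. The causes were not tested.

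Same-numbered aged and young mice are different animals and share only a number. Their deviations from group means correlated from -0.142 to 0.073 in 24 pairs, and 4 of 24 aged libraries matched their own number best. With the replicate block 1 member was called higher and 0 lower. Depth limits Lox, Col5a1 and Col5a2, which often rest on a few reads. Sparc lies in the narrow upper range of the parabiosis table, and whether this made its changes there smaller was not tested.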
